A study of Homo sapiens with 6 samples.

Results

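The genes described here are 9 of the 23340 named genes in the files: the epithelial NADPH oxidases DUOX1, DUOX2, NOX1 and NOX4, the DUOX maturation factors DUOXA1 and DUOXA2, the oxidase subunit CYBA, the inducible nitric oxide synthase NOS2 and the mitochondrial superoxide dismutase SOD2. They were chosen by symbol, and all 9 were found. RNA sequencing (50-bp paired-end reads) was done on 3 established human cell lines with 2 libraries each. HT-29, a colon adenocarcinoma line grown with 10% fetal bovine serum, is labelled as treated with IFN-γ at 200 U/ml for 24 hr, and HT-29 cells without IFN-γ were not analysed here, so line and treatment cannot be told apart. MDA-MB-436 is a breast adenocarcinoma line grown with 10% fetal bovine serum and no treatment. MCF10A is a non-tumorigenic mammary epithelial line, untreated, grown with 5% horse serum, EGF (20 ng/ml), hydrocortisone (500 ng/ml), cholera toxin (100 ng/ml) and insulin (10 µg/ml). The labels name no treatment that the 3 lines share, and the medium differs with the line.

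NADPH oxidases carry electrons across a membrane to oxygen and so make superoxide or hydrogen peroxide. NOX1 is the main oxidase of colon epithelium and needs the membrane partner CYBA (p22phox), an organiser (NOXO1), an activator (NOXA1) and a Rac GTPase, whereas the DUOX enzymes work without CYBA and reach the surface only with their DUOXA partners. NOS2 makes nitric oxide and is induced by cytokines, IFN-γ among them, while SOD2 turns superoxide in mitochondria into hydrogen peroxide and is induced by inflammatory cytokines.

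One library of each line is labelled 25M reads and the other deeper. The whole reads recovered from the normalised counts were 18.4 and 50.2M for the HT-29-labelled libraries, 16.7 and 56.4M for the MDA-MB-436-labelled libraries, and 18.3 and 69.5M for MCF10A. For the deeper MCF10A library the title says 100M and the sample type 50. Libraries of a line differed a little more than sampling alone gives: the median chi-square over genes was 0.708 for the HT-29-labelled libraries, 0.672 for the MDA-MB-436-labelled libraries and 0.546 for MCF10A, against 0.455 for sampling. Below, the 25M library of a line is given before the deeper one, and means are ± SD with n = 2 libraries.

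The labels were checked against markers before the genes were compared. KRT20, a keratin of intestinal epithelium, was at 0 and 0.547 normalised counts in the HT-29-labelled libraries, 29900 and 30880 in the MDA-MB-436-labelled libraries, and 0 and 1.47 in MCF10A. VIL1, the microvillus protein villin, was at 2055 and 2198 in the MDA-MB-436-labelled libraries and had 0 reads in the other 4 libraries. VIM, the mesenchymal filament vimentin, was at 36599 and 35267 in the HT-29-labelled libraries, 16.5 and 7.39 in the MDA-MB-436-labelled libraries, and 25901 and 26246 in MCF10A. CDH1, the epithelial cadherin, was at 4.50 and 3.83 in the HT-29-labelled libraries, 22793 and 22477 in the MDA-MB-436-labelled libraries, and 5307 and 5324 in MCF10A. These levels go against both cancer line labels: the colon markers stand in the MDA-MB-436-labelled libraries, and the HT-29-labelled libraries nearly lack them. The sum of 10 intestinal markers was 4.50 to 7.11 in the HT-29-labelled libraries, 76594 to 80275 in the MDA-MB-436-labelled libraries, and 1.87 to 7.86 in MCF10A. The sum of 7 mesenchymal markers was 87789 to 90280, 143.5 to 189 and 30356 to 30718 in the same order, that of 5 epithelial junction markers 306 to 316, 74115 to 75914 and 15636 to 15756, and that of 6 basal markers 8924 to 9572, 31034 to 31036 and 850058 to 867177. ITGB4 made most of the basal sum in the HT-29-labelled libraries (mean 7900) and in the MDA-MB-436-labelled libraries (mean 28829). That sum therefore does not rank these lines by basal character. In MCF10A, VIM made most of the mesenchymal sum. Endothelial and smooth muscle markers summed to 131 to 156, 233 to 259 and 52.4 to 62.4 in the same order of lines. Samples were kept in their labelled groups, all directions are given by label, and no comparison here is free of a doubted label. MCF10A had its basal keratin KRT14 at 225570 and 218996. KRT14 was at 91.5 and 2.74 in the HT-29-labelled libraries and at 84.4 and 0.616 in the MDA-MB-436-labelled libraries, so the 25M library was the higher one in both.

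Promoter windows of 5 genes are shown because the results turn on these genes. Each runs from 250 bases before to 50 after the start and comes from RefSeq on GRCh38.p14, a later build than the authors' hg19; 8 of the 9 genes matched, all but NOS2. In DUOX1, CYBA and SOD2 the capitals mark GGGCGG or its complement CCGCCC, in DUOX2 TTTATA, the complement of TATAAA, and in NOX1 GGG and CC set 5 bases apart (a κB-like pattern), read on the opposite strand. The windows lie at chr15:45129744-45130043 on the plus strand for DUOX1, and on the minus strand at chr15:45114123-45114422 for DUOX2, chrX:100874310-100874609 for NOX1, chr16:88651004-88651303 for CYBA and chr6:159693192-159693491 for SOD2, the one of its 4 windows with the most annotated starts.
DUOX1: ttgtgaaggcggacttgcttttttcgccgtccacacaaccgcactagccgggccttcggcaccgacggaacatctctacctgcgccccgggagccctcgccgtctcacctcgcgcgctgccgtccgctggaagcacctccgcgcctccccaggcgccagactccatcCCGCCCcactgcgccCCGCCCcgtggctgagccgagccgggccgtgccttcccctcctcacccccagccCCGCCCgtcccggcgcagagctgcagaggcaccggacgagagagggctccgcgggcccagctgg
DUOX2: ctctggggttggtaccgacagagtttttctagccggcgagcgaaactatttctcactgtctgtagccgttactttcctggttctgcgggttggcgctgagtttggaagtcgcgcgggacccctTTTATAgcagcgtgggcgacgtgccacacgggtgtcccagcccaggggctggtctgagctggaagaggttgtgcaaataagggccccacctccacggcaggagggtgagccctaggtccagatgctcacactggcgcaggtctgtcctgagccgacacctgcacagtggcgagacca
NOX1: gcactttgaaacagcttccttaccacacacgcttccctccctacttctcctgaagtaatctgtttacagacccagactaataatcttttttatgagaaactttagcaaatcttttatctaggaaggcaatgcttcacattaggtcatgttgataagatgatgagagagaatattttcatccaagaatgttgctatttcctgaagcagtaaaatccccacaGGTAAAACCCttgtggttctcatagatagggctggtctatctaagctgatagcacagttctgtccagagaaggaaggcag
CYBA: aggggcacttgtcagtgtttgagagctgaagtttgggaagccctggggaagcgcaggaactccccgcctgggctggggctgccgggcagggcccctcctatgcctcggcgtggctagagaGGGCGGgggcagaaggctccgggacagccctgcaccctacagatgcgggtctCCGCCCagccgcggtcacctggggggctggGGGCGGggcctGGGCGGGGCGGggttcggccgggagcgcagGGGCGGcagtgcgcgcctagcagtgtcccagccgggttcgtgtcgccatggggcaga
SOD2: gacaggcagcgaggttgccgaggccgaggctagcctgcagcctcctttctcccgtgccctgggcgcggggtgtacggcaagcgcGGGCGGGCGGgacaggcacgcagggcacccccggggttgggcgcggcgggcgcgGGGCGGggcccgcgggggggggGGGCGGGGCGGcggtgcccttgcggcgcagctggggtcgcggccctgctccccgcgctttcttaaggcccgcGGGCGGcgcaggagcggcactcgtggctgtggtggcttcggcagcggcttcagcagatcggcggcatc
The DUOX genes form 2 head-to-head pairs on chromosome 15. The starts of DUOX1 and DUOXA1 lie 115 bases apart on opposite strands and their windows share 214 bases. Those of DUOX2 and DUOXA2 lie 154 bases apart and share 253 bases, so the TATA match printed for DUOX2 reads TATAAA on the DUOXA2 strand. This match lies nearer the start of DUOXA2 than that of DUOX2. The windows also differ in CpG content: SOD2 has 40 CpGs, DUOX1 35, CYBA 23, DUOX2 18 and NOX1 1, against a median of 14 over all 35114 windows. Searched on both strands, the window of SOD2 held 6 matches to GGGCGG, that of CYBA 6, that of DUOX1 3, and those of NOX1 and DUOX2 0, where 45.0% of all windows hold at least 1. TATAAA occurs in 11.5% of all windows and the κB-like pattern in 58.7%. That pattern is marked in NOX1 alone but is not particular to it: it had 7 matches in CYBA, 4 in SOD2, 2 in DUOX2 and 1 each in NOX1 and DUOX1. None of these 5 windows held GAAA repeated after 2 bases, the core of an interferon response element, found in 3.57% of all windows.

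The lines differed in which of the 9 genes they carried. SOD2 led in the HT-29-labelled libraries, NOX1 and CYBA led in the MDA-MB-436-labelled libraries, and DUOX1 and DUOXA1 led in MCF10A. Of the 9 genes, 6 (DUOX1, DUOX2, DUOXA1, NOX1, CYBA and SOD2) reached a normalised count of 10 in at least 2 libraries and were tested with limma on log2(normalised count + 1). A difference was called at a Benjamini-Hochberg adjusted p below 0.05 over 15638 genes with a log2 fold change of at least 1 in size. DUOXA2, NOX4 and NOS2 stayed under that filter.

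**Figure D1:**
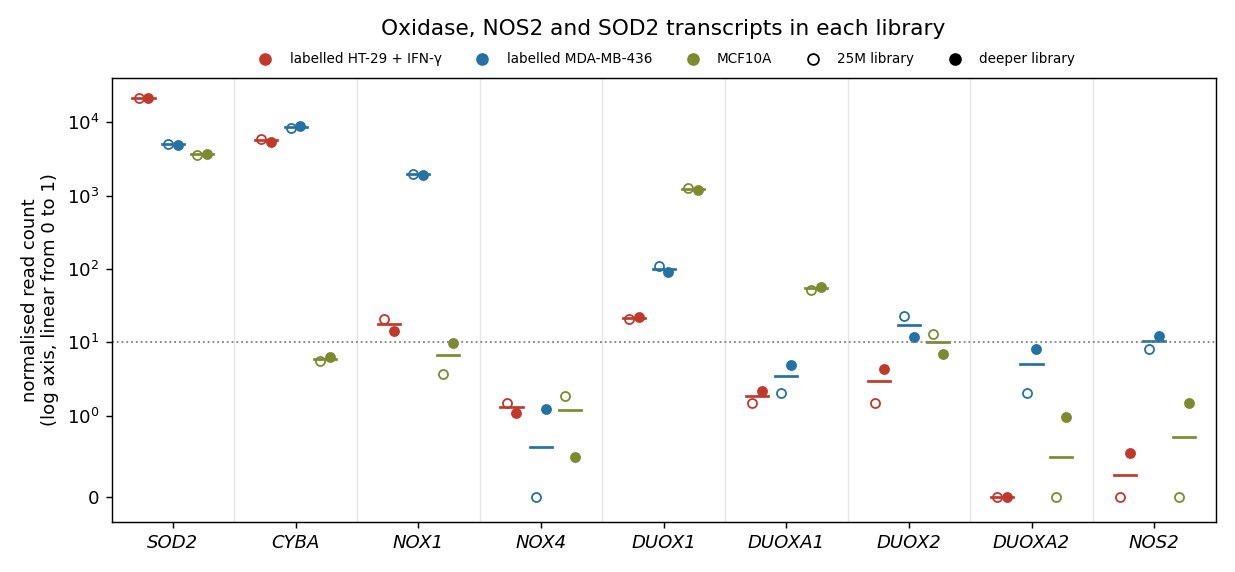
Normalised read count (vertical axis, log scale, linear from 0 to 1) of the 9 genes in each library. Colours are the lines, open points the 25M library, filled points the deeper one, bars the mean, and the dotted line the filter of 10; SOD2 is highest in the HT-29-labelled libraries, NOX1 in the MDA-MB-436-labelled libraries and DUOX1 in MCF10A, while NOX4 lies under 2 everywhere.

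NOX1, the catalytic subunit of the colon oxidase, was abundant in the MDA-MB-436-labelled libraries alone. It stood at 21.0 and 14.2 normalised counts in the HT-29-labelled libraries, 1954 and 1936 in the MDA-MB-436-labelled libraries, and 3.74 and 9.82 in MCF10A. The MDA-MB-436-labelled libraries lie far above the other 4, which hold 2 to 26 reads each. The log2 fold change was 8.09 for the MDA-MB-436-labelled libraries over MCF10A (SE 0.375, adjusted p = 2.47e-07), and the ratio of pooled reads, scaled for depth, was 227 (95% counting interval 149.6 to 362). The HT-29-labelled libraries were lower than the MDA-MB-436-labelled libraries by a log2 fold change of -6.73 (adjusted p = 7.14e-07). Against MCF10A the HT-29-labelled libraries were 1.35 higher on the log2 scale (adjusted p = 0.0102), on 40 reads against 22. That last call was lost in 6 other settings, among them those without the 25M HT-29-labelled library (1.09, adjusted p = 0.0756) and without the 25M MCF10A library (0.76, adjusted p = 0.0344).

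CYBA, the p22phox subunit that stabilises NOX1, NOX4 and the phagocyte oxidase, separated both cancer lines from MCF10A. Its level was 5907 and 5444 in the HT-29-labelled libraries, 8265 and 9026 in the MDA-MB-436-labelled libraries, and 5.62 and 6.38 in MCF10A, where the 2 libraries held 3 and 13 reads. The MCF10A libraries are thus near the counting floor, and the libraries of the cancer lines do not overlap with each other. The ratio of pooled reads over MCF10A was 895 (551 to 1566) for the HT-29-labelled libraries and 1422 (876 to 2489) for the MDA-MB-436-labelled libraries. The log2 fold changes over MCF10A were 9.66 (adjusted p = 9.07e-11) in the HT-29-labelled libraries and 10.27 (SE 0.0774, adjusted p = 3.76e-11) in the MDA-MB-436-labelled libraries. Between the cancer lines the log2 fold change of -0.61, lower in the HT-29-labelled libraries (adjusted p = 1.25e-04), did not reach the fold threshold. The HT-29-labelled libraries therefore carried CYBA at a high level with NOX1 at 14.2 to 21.0, and the MDA-MB-436-labelled libraries carried both.

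CYBA also serves phagocytes, so leukocyte markers were read beside it. The sum of 9 such markers was 561.9 to 562.5 in the HT-29-labelled libraries, 115 to 126 in the MDA-MB-436-labelled libraries, and 572.5 to 573.0 in MCF10A. CD14, which some epithelial cells also express, made most of it, at 364 ± 11.7, 80.1 ± 11.3 and 474 ± 17.9 in that order. PTPRC, carried by nearly all leukocytes, lay between 1.23 and 10.3 in all 6 libraries. ITGAM, an integrin of myeloid cells, averaged 168 ± 0.408 in the HT-29-labelled libraries, 27.4 ± 10.8 in the MDA-MB-436-labelled libraries and 8.61 ± 1.07 in MCF10A, and was higher than in MCF10A in both lines where CYBA was high (log2 fold change over MCF10A 4.14, adjusted p = 3.96e-06, and 1.51, adjusted p = 0.00168). CD163, a macrophage receptor, was at 19.5 and 13.1 in the HT-29-labelled libraries and had 0 reads in the other 4. CSF1R, the receptor of a macrophage growth factor, averaged 6.69 ± 3.27, 3.29 ± 1.17 and 81.7 ± 14.9 in that order. ELANE, CD3E and FCGR3A lay between 0 and 4.12 in all 6 libraries. Of the 4 markers tested, 1 was higher and 2 lower in the MDA-MB-436-labelled libraries than in MCF10A (median log2 fold change -1.28, against 0 over all genes tested, of which 25.6% were called higher and 23.7% lower). In the HT-29-labelled libraries, 2 were higher and 1 lower than in MCF10A (median 1.85, against 0.13, with 28.4% and 18.1% of all genes), and 3 were higher and 0 lower than in the MDA-MB-436-labelled libraries (median 2.40, against 0.09, with 29.9% and 23.5% of all genes). The part of other cells in the CYBA level was not tested. CYBB, the catalytic subunit of the phagocyte oxidase, stayed between 16.5 and 28.95 in all 6 libraries. In bulk RNA, fewer cells with a transcript and less of it per cell cannot be told apart.

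NOX4, which needs CYBA but no cytosolic partner and makes hydrogen peroxide, was barely detected. It had 3 reads in all in the HT-29-labelled libraries, 2 in the MDA-MB-436-labelled libraries and 2 in MCF10A. The pooled levels were 1.20 (0.248 to 3.52), 0.948 (0.115 to 3.42) and 0.778 (0.0942 to 2.81), with intervals that overlap, so no order of the lines was detectable at this depth.

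The partners of NOX1 were read from a list of 12 other oxidases and subunits, of which 9 were tested. NOXO1, the organiser, was at 58.5 and 42.7 in the HT-29-labelled libraries, 356 and 353 in the MDA-MB-436-labelled libraries, and 43.1 and 46.2 in MCF10A. It was higher in the MDA-MB-436-labelled libraries than in MCF10A by 2.96 on the log2 scale (adjusted p = 1.19e-06). NOXA1, the activator, was at 69.0 and 84.3, at 198 and 196, and at 44.9 and 45.2 in the same order, 2.10 higher in the MDA-MB-436-labelled libraries than in MCF10A (adjusted p = 4.22e-06). Both partners thus were highest where NOX1 was, and every library had some of each. RAC1, the GTPase of the complex, was at 16057 ± 124 in the HT-29-labelled libraries, 16050 ± 159 in the MDA-MB-436-labelled libraries and 10810 ± 50.5 in MCF10A. RAC1, CYBB, the leukocyte markers other than CD14, and NOS3, SOD1, CAT and GPX1 below are named for their role, after their values were seen.

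RAC2 of the same list, the GTPase best known from blood cells, had the other order, with MCF10A highest. It averaged 1044 ± 106 in the HT-29-labelled libraries, 309 ± 26.0 in the MDA-MB-436-labelled libraries and 5088 ± 42.7 in MCF10A, and was lower in both cancer lines than in MCF10A (log2 fold change -2.29 in the HT-29-labelled libraries, adjusted p = 6.23e-08, and -4.04 in the MDA-MB-436-labelled libraries, adjusted p = 2.35e-09). Of the 9 tested genes, 2 were higher and 4 lower in the MDA-MB-436-labelled libraries than in MCF10A (median log2 fold change -0.72, against 0 over all genes tested). In the HT-29-labelled libraries, 0 were higher and 3 lower than in MCF10A (median -0.69, against 0.13), and 3 were higher and 2 lower than in the MDA-MB-436-labelled libraries (median -0.19, against 0.09). Of all genes tested, the shares called higher and lower were 25.6% and 23.7%, 28.4% and 18.1%, and 29.9% and 23.5% in that order.

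**Figure D2:**
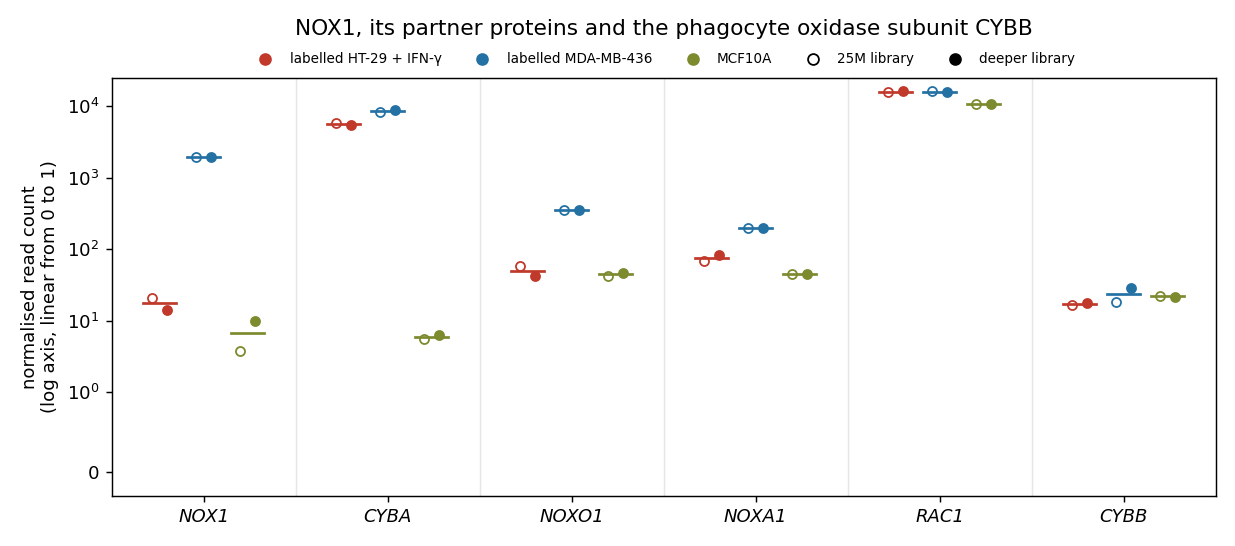
Normalised read count (vertical axis, log scale, linear from 0 to 1) of NOX1, its partners CYBA, NOXO1, NOXA1 and RAC1, and the phagocyte subunit CYBB, by library. Colours are the lines, open points the 25M and filled points the deeper library, bars the mean; NOX1, NOXO1 and NOXA1 are highest in the MDA-MB-436-labelled libraries, and CYBA is under 10 in MCF10A.

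DUOX1, a calcium-regulated oxidase that releases hydrogen peroxide at the surface of airway and other epithelia, was highest in MCF10A. It stood at 21.0 and 22.4 in the HT-29-labelled libraries, 111 and 90.5 in the MDA-MB-436-labelled libraries, and 1258 and 1207 in MCF10A. The 3 lines do not overlap. The pooled level was 55.2-fold lower in the HT-29-labelled libraries than in MCF10A (42.3 to 73.5) and 12.8-fold lower in the MDA-MB-436-labelled libraries (11.1 to 14.8). The log2 fold changes from MCF10A were -5.76 in the HT-29-labelled libraries (adjusted p = 8.55e-09) and -3.61 in the MDA-MB-436-labelled libraries (SE 0.135, adjusted p = 7.17e-08). The HT-29-labelled libraries were also lower than the MDA-MB-436-labelled libraries, by a log2 fold change of -2.16 (adjusted p = 1.49e-06).

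DUOXA1, which brings DUOX1 to the cell surface and shares its promoter region, followed DUOX1 in its highest line. Its level was 1.5 and 2.19 in the HT-29-labelled libraries, 2.06 and 4.93 in the MDA-MB-436-labelled libraries, and 52.4 and 56.5 in MCF10A. MCF10A stands above the other lines, and those overlap, at 1 to 8 reads a library. The log2 fold change from MCF10A was -4.29 in the HT-29-labelled libraries (adjusted p = 2.13e-05) and -3.70 in the MDA-MB-436-labelled libraries (SE 0.404, adjusted p = 5.06e-05). Between the cancer lines it was -0.59 (adjusted p = 0.199), which did not pass, but it did without the 25M MDA-MB-436-labelled library (-1.07, adjusted p = 0.03). Without either MCF10A library DUOXA1 missed the filter and was not tested. MCF10A had 24.0 and 21.4 reads of DUOX1 for each read of DUOXA1, without regard to their lengths.

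DUOX2, the inducible oxidase of gut and thyroid epithelium, was low in every line. It was at 1.5 and 4.38 in the HT-29-labelled libraries, 22.7 and 11.7 in the MDA-MB-436-labelled libraries, and 13.1 and 6.87 in MCF10A. The MDA-MB-436-labelled libraries and MCF10A overlap, and 9 reads in all stand behind the HT-29-labelled libraries. The log2 fold change was 0.72 for the MDA-MB-436-labelled libraries over MCF10A (adjusted p = 0.238), which did not pass. The HT-29-labelled libraries were lower than the MDA-MB-436-labelled libraries, with a log2 fold change of -2.24 (adjusted p = 0.00431). They were also lower than MCF10A (-1.52, adjusted p = 0.0269), but the interval of that pooled ratio, 0.442 (0.178 to 1.01), takes in equality. The call was lost in 6 other settings, among them those without the 25M HT-29-labelled library (-0.97, adjusted p = 0.173) and without the 25M MCF10A library (-1.10, adjusted p = 0.163). DUOX1 made up most DUOX reads throughout: 93.3% (exact 95% interval 68.1 to 99.8) and 83.7% in the HT-29-labelled libraries, 83.1% and 88.6% in the MDA-MB-436-labelled libraries, and 99% and 99.4% (99.1 to 99.7) in MCF10A, without regard to length.

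DUOXA2, the partner of DUOX2, had 0 reads in the HT-29-labelled libraries, 1 and 13 in the MDA-MB-436-labelled libraries, and 0 and 2 in MCF10A. Over the group of HT-29-labelled libraries, 0 reads allow up to 3, a normalised count of 1.20. That floor is 5.52-fold below the pooled level of the MDA-MB-436-labelled libraries, 6.64 (3.63 to 11.1). The counting error of their 14 reads is not in this ratio, so it is not a lower bound. The pooled level of the MDA-MB-436-labelled libraries was 8.53 times that of MCF10A (1.96 to 77.3). The gene spans of DUOXA1 and DUOXA2 overlap, and whether counting used the strand is not given in the sources used here; reads in the shared stretch cannot be told apart. Among haem peroxidases, which use hydrogen peroxide, PXDN (peroxidasin, which crosslinks collagen IV) was at 4403 ± 10.5 in the HT-29-labelled libraries, 10.4 ± 0.125 in the MDA-MB-436-labelled libraries and 4110 ± 45.8 in MCF10A. Of the 3 tested from that list of 6, 1 was higher and 1 lower in the MDA-MB-436-labelled libraries than in MCF10A (median 0.52, against 0, where 49.2% of all genes were called). In the HT-29-labelled libraries, 0 were higher and 1 lower than in MCF10A (median 0.10, against 0.13, with 46.5% called), and 1 was higher and 2 lower than in the MDA-MB-436-labelled libraries (median -2.60, against 0.09, with 53.4% called).

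NOS2 was barely detected, and most of its reads lay in the MDA-MB-436-labelled libraries. Its level was 0 and 0.547 in the HT-29-labelled libraries, 8.23 and 12.3 in the MDA-MB-436-labelled libraries, and 0 and 1.47 in MCF10A, on 1, 24 and 3 reads a line. The MDA-MB-436-labelled libraries do not overlap with the others, which overlap with each other. The pooled level of the MDA-MB-436-labelled libraries was 9.75 times that of MCF10A (2.96 to 50.6), and that of the HT-29-labelled libraries was 0.0352 times that of the MDA-MB-436-labelled libraries (0.000857 to 0.216). In the libraries that carry the IFN-γ label, NOS2 thus had 1 read in all.

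Enzymes and transporters around nitric oxide differed between the lines too. GCH1, the first enzyme of the synthesis of the NOS cofactor tetrahydrobiopterin, was at 255 and 271 in the HT-29-labelled libraries, 2230 and 2111 in the MDA-MB-436-labelled libraries, and 371 and 421 in MCF10A. It was higher in the MDA-MB-436-labelled libraries than in MCF10A by 2.45 on the log2 scale (adjusted p = 2.42e-08). DDAH1, which breaks down a natural NOS inhibitor, averaged 1229 ± 1.58, 8107 ± 268 and 171 ± 15.3 in that order, and SLC7A2, an arginine transporter, averaged 509 ± 39.4, 337 ± 66.5 and 2460 ± 48.8. DDAH1 was higher in both cancer lines than in MCF10A (adjusted p = 6.6e-09 for the HT-29-labelled libraries and 1.86e-10 for the MDA-MB-436-labelled libraries), and SLC7A2 was lower in both (7.32e-07 and 1.5e-07). NOS3, the endothelial enzyme, was at 12.0 ± 0.0261, 60.6 ± 1.34 and 5.75 ± 0.194. Of the 15 tested genes from a list of 18, 7 were higher and 4 lower in the MDA-MB-436-labelled libraries than in MCF10A (median 0.94, against 0), and 2 were higher and 2 lower in the HT-29-labelled libraries than in MCF10A (median -0.37, against 0.13). In the HT-29-labelled libraries, 3 were higher and 7 lower than in the MDA-MB-436-labelled libraries (median -0.80, against 0.09). Beside these counts, all genes tested had 25.6% called higher and 23.7% lower, then 28.4% and 18.1%, then 29.9% and 23.5%, in that order.

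SOD2, the manganese superoxide dismutase, was high in every line and highest in the HT-29-labelled libraries. It stood at 21183 and 21138 in the HT-29-labelled libraries, 5040 and 4951 in the MDA-MB-436-labelled libraries, and 3592 and 3735 in MCF10A. The 3 lines do not overlap, and the libraries of a line differ by a few percent at most. The ratio of pooled reads was 5.71 (5.58 to 5.83) for the HT-29-labelled libraries over MCF10A and 4.25 (4.17 to 4.34) over the MDA-MB-436-labelled libraries. The log2 fold change was 2.53 over MCF10A (SE 0.0274, adjusted p = 2.81e-10) and 2.08 over the MDA-MB-436-labelled libraries (adjusted p = 3.73e-10). The MDA-MB-436-labelled libraries were 0.45 above MCF10A on the log2 scale (adjusted p = 1.35e-06), which is under the fold threshold. The SOD2 span overlaps WTAP, ACAT2 and SOD2-OT1, and reads shared with them cannot be told apart without the strand.

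None of the 7 other enzymes of superoxide and peroxide removal named here had the order of lines of SOD2. SOD1, the cytosolic dismutase, was at 11184 ± 339 in the HT-29-labelled libraries, 3760 ± 225 in the MDA-MB-436-labelled libraries and 7518 ± 34.5 in MCF10A. GPX1, the common glutathione peroxidase, was highest in MCF10A (10133 ± 439, 4285 ± 150 and 14046 ± 344), and catalase (CAT) lay within 1790 to 2341 in all 6 libraries. GPX2, the gastrointestinal glutathione peroxidase, was at 1.5 and 2.19 in the HT-29-labelled libraries, 9857 and 10103 in the MDA-MB-436-labelled libraries, and 9.36 and 7.86 in MCF10A. It was 10.02 higher on the log2 scale in the MDA-MB-436-labelled libraries than in MCF10A (adjusted p = 1.95e-09). TXNRD1, the cytosolic thioredoxin reductase, averaged 13172 ± 180, 40642 ± 143 and 3826 ± 29.4, GPX8, a peroxidase of the endoplasmic reticulum, 3995 ± 5.31, 145 ± 0.883 and 1477 ± 1.90, and PRDX4, the secretory pathway peroxiredoxin, 5153 ± 50.9, 1068 ± 63.1 and 4582 ± 8.20. All 20 genes of that list were tested: 5 were higher and 7 lower in the MDA-MB-436-labelled libraries than in MCF10A (median -0.36, against 0), 4 higher and 1 lower in the HT-29-labelled libraries than in MCF10A (0.11, against 0.13), and 9 higher and 4 lower in the HT-29-labelled libraries than in the MDA-MB-436-labelled libraries (0.47, against 0.09). Over all genes tested, 25.6% were called higher and 23.7% lower, then 28.4% and 18.1%, then 29.9% and 23.5%, in that order.

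NOS2, SOD2 and DUOX2 are known targets of interferon and NF-κB signalling, so 17 regulators were read beside them. IRF1, an early IFN-γ target, was at 2234 and 2194 in the HT-29-labelled libraries, 79637 and 79442 in the MDA-MB-436-labelled libraries, and 393 and 414 in MCF10A. SOCS1 and SOCS3, feedback inhibitors of JAK signalling, averaged 263 ± 7.53 and 1233 ± 25.3 in the HT-29-labelled libraries, 1070 ± 38.6 and 1056 ± 18.0 in the MDA-MB-436-labelled libraries, and 19.3 ± 4.43 and 11.7 ± 1.98 in MCF10A. IRF1 was higher than in MCF10A in both cancer lines (log2 fold change 2.45 and 7.62, adjusted p = 6.52e-10 for the HT-29-labelled libraries and 5.07e-12 for the MDA-MB-436-labelled libraries). IRF1 thus was highest in the MDA-MB-436-labelled libraries, which carry no IFN-γ label, and SOD2 in the HT-29-labelled libraries, which do. The markers above go against both of these line labels. Of the 17, all tested, 11 were higher and 1 lower in the MDA-MB-436-labelled libraries than in MCF10A (median 1.61, against 0), 8 higher and 0 lower in the HT-29-labelled libraries than in MCF10A (0.92, against 0.13), and 2 higher and 7 lower in the HT-29-labelled libraries than in the MDA-MB-436-labelled libraries (-0.69, against 0.09). The shares of all genes tested called higher and lower were 25.6% and 23.7%, 28.4% and 18.1%, and 29.9% and 23.5% in that order.

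**Figure D3:**
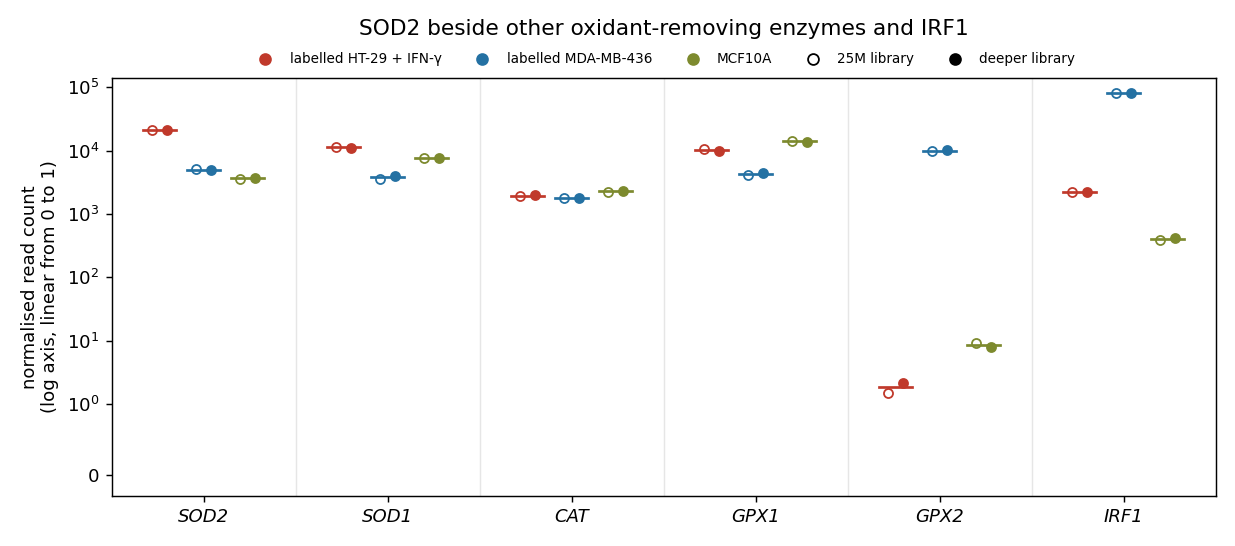
Normalised read count (vertical axis, log scale, linear from 0 to 1) of SOD2, of the enzymes SOD1, CAT, GPX1 and GPX2, and of IRF1, by library. Colours are the lines, open points the 25M and filled points the deeper library, bars the mean; SOD2 is highest in the HT-29-labelled libraries, and GPX2 and IRF1 are highest in the MDA-MB-436-labelled libraries.

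Counted over the genes tested, 2 of the 6 were higher and 2 lower in the MDA-MB-436-labelled libraries than in MCF10A, where 49.2% of all genes tested were called (25.6% higher and 23.7% lower). In the HT-29-labelled libraries, 3 were higher and 3 lower than in MCF10A, against 46.5% of all genes (28.4% higher and 18.1% lower). Between the HT-29-labelled and the MDA-MB-436-labelled libraries, 1 was higher and 3 lower, against 53.4% of all genes (29.9% higher and 23.5% lower). With a background near 1 gene in 2, these counts say little of the set, and a gene low in most libraries entered the test only through the line where it was high. Any 2 of the 3 comparisons share the libraries of 1 line, and the third is the difference between the second and the first. The 3 are therefore not independent of each other. No gene of the 6 differed between the deeper and the 25M libraries with the cell line as a block, where 0% of all genes were called by limma and 284 had an unadjusted p below 0.05; edgeR called 1 gene higher and 1 lower, and DESeq2 called 0.

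**Figure D4:**
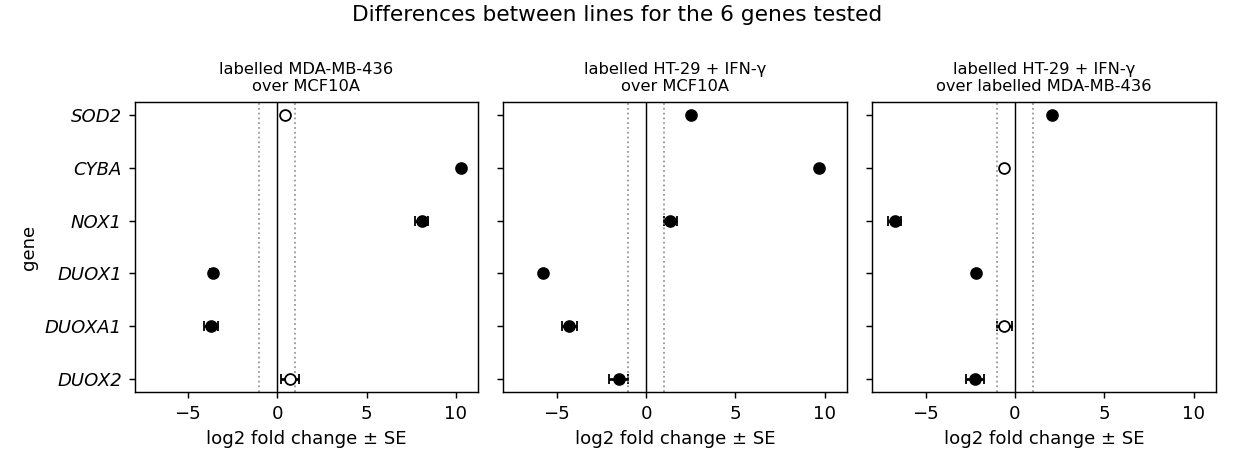
Log2 fold change (horizontal axis, on log2(normalised count + 1), with SE bars) of the 6 genes tested, in 3 comparisons. Filled points passed both thresholds and dotted lines mark a log2 fold change of 1 in either direction; CYBA lies near 10 over MCF10A in both cancer lines, DUOX1 lies below 0 in all 3 panels, and NOX1 lies above 0 over MCF10A and below 0 between the cancer lines.

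Levels were compared between genes on the deposited RPKM, which is per length and was in register with the symbols for these 9 genes. In the HT-29-labelled libraries, SOD2 (754 ± 2.85 RPKM) stood above CYBA (287 ± 15.1), and the leading 2 of the 4 catalytic oxidases lay at 0.261 ± 0.0698 for NOX1 and 0.142 ± 0.00738 for DUOX1. In the MDA-MB-436-labelled libraries, CYBA (349 ± 19.4) stood above SOD2 (142 ± 2.69) and NOX1 (23.0 ± 0.294), with DUOX1 at 0.526 ± 0.0795. In MCF10A, SOD2 (105 ± 3.16) stood first, followed by DUOX1 (6.50 ± 0.176) and DUOXA1 (0.853 ± 0.0465), and CYBA reached 0.245 ± 0.0226. Among NOX1, NOX4, DUOX1 and DUOX2, the leading one per length was thus NOX1 in the MDA-MB-436-labelled libraries and DUOX1 in MCF10A, and the HT-29-labelled libraries had all 4 under 1 RPKM.

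The genes with the pattern most like each of the 6 over the 6 libraries were found by the root mean square difference of centred log2 levels, over 11935 genes with a mean of at least 100. For SOD2 they were BAMBI (0.0532), TRIM36 (0.0828) and SVIP (0.0943), and BAMBI averaged 1857 in the HT-29-labelled libraries, 426 in the MDA-MB-436-labelled libraries and 297 in MCF10A. For NOX1 they were HLA-DMA (0.276), HLA-DQA1 (0.321) and PRSS3 (0.335), and for CYBA they were CREB3L1 (0.357), EEF1A2 (0.383) and GPR158 (0.446). For DUOX1 they were SLC2A9 (0.176), PLCH2 (0.223) and FKBP5 (0.332), the last at 385, 2521 and 34911 normalised counts in the same order. For DUOXA1 they were AVPI1 (0.312), TAGLN (0.323) and VARS2 (0.395), and for DUOX2 TCN2 (0.370), ZBTB44 (0.437) and FBXW7 (0.445). With 3 lines, such a likeness describes little more than the order and spacing of 3 levels.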

How the data were processed

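Groups came from the cell line labels, and replicate numbers only name libraries. The labels do not tell whether a line's 2 libraries are from separate cultures; p-values then reflect only the spread between these samples, and it may be technical. Per the submitters' processing notes, HTSeq, STAR 2.2.0, FastQC and build hg19 were used in some role; neither the annotation nor the strandedness is given in the sources used here. Per the file headers, each deposited table pairs a gene symbol with a normalised count and an RPKM value. Normalised counts, as deposited, are a signal with 1 scale factor per library: 100% of values were whole multiples of a step (tolerance 0.001), so whole reads were recovered. The deposited RPKM were in register with the counts for 84.6% of 18548 genes checked, all 9 described here among them. Of 23368 rows, 28 with a date or repeated name were left out.

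The test planned for raw counts was edgeR's; because the unit is a normalised count, limma (trended, robust) was used on log2(normalised count + 1), with 1 fit over the 6 libraries (3 residual degrees of freedom) of genes at 10 or more in at least 2 libraries. This scale understates changes of low genes. All adjusted p are limma's unless another tool is named. Ratios of pooled reads have exact 95% conditional intervals and levels exact Poisson ones; these and the floor of 3 reads over a group cover counting error only. The recovered depth, 16.7 to 69.5M reads, sets that precision. edgeR and DESeq2 on the recovered reads were alternatives, beside other pseudocounts, filters and scalings and left-out libraries. The limma steps were also run on simulated counts in which far fewer genes differed than between these lines. No result here rests on that run. Named list genes are up to 4 a list with a mean of at least 100 and the widest gap between line means, beside those named for their role, and some that this picks are not reported here; those of the basal, junction, mesenchymal and intestinal marker lists were used for the label check only. The 9 genes and all lists were chosen with earlier results of these data known. The tools were limma 3.58.1, DESeq2 1.42.0 and edgeR 4.0.16 in R 4.3.3.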

Additional observations from a re-analysis of the deposited data

Results flagged for a closer look

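CYBA moved in opposite directions between the deeper and the 25M library in the lines where it was abundant. The deeper library was at 0.922 times the 25M library in the HT-29-labelled pair (95% counting interval 0.888 to 0.957) and at 1.09 times in the MDA-MB-436-labelled pair (1.05 to 1.13). Each interval leaves out equality for counting error alone, with 1 library a depth, and the difference between the pairs was not tested. In MCF10A the ratio was 1.14 (0.312 to 6.22), on 13 and 3 reads.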

How the results depend on the processing

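Among the log2 fold changes of the 6 genes under other settings, 282 kept their direction and side of the thresholds, 12 lost the call, 1 gained it and 0 reversed. All 12 lost calls concern DUOX2 and NOX1 in the HT-29-labelled libraries against MCF10A. DUOX2 was at -0.62 with a pseudocount of 10, -1.28 scaled by library total (adjusted p = 0.0531), -1.49 with DESeq2 (adjusted p = 0.132), -1.32 with the MCF10A libraries summed, -0.97 without the 25M HT-29-labelled library and -1.10 without the 25M MCF10A library; over all settings its adjusted p ran from 0.0125 to 0.173. NOX1 was at 0.73 with a pseudocount of 10, 0.82 with edgeR, 0.93 with DESeq2, 0.94 with the MCF10A libraries summed, 1.09 without the 25M HT-29-labelled library (adjusted p = 0.0756) and 0.76 without the 25M MCF10A library, with adjusted p from 0.001 to 0.0756 over all settings. DUOXA1 gained a call in the HT-29-labelled libraries against the MDA-MB-436-labelled libraries without the 25M library of the second (-1.07, adjusted p = 0.03, where the settings ran from 0.03 to 0.784). With no filter, 4 of the 9 genes were higher in the MDA-MB-436-labelled libraries than in MCF10A in place of 2, and 5 lower in the HT-29-labelled libraries than in the MDA-MB-436-labelled libraries in place of 3, because DUOXA2 and NOS2 entered. Leaving out 1 library gave 1 to 2 lower in the MDA-MB-436-labelled libraries than in MCF10A, and 1 to 3 lower in the HT-29-labelled libraries than in MCF10A; DUOXA1 missed the filter without either MCF10A library. For deeper against 25M libraries, edgeR called 1 gene higher and 1 lower, and leaving out 1 library gave 0 to 1 lower. Scaling by library total moved the median of all genes by 0.304 in the HT-29-labelled libraries against MCF10A (5376 higher and 1994 lower, in place of 4442 and 2823) and by 0.323 against the MDA-MB-436-labelled libraries (5617 and 2822, in place of 4675 and 3675). TMM moved the first by -0.129. edgeR on the recovered reads called 3904 genes higher and 3868 lower in the MDA-MB-436-labelled libraries against MCF10A, 4268 and 3098 in the HT-29-labelled libraries against MCF10A, and 4625 and 3781 in the HT-29-labelled against the MDA-MB-436-labelled libraries. No paired analysis was possible because the labels give no replicate numbers that pair libraries across lines (the numbers used here follow accession order). Read depth, which each label does give, was tried as a block and changed no call of the 6 genes.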
